A study of Mus musculus with 21 samples.

Results

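The circadian clock genes Per1, Per2, Per3, Cry1, Cry2, Arntl, Clock, Nr1d2, Dbp and Bhlhe40 were examined in mouse muscle stem cells sorted from resting hindlimb muscle and from the limb opposite an injury. The 10 genes were chosen by name for their place in the molecular clock, with earlier results of these data known. They are 10 of 19938 genes that had a probeset with a single gene symbol, each of the 10 through 1 such probeset, and all 10 were among the 13956 genes bright enough to be tested. In WT cells, Per1, Per3 and Bhlhe40 fell 2.5 days after an injury to the opposite limb, Per3 in only 10 of 17 alternative settings. All 10 genes had a lower mean there than in noninjured mice. Of all tested genes 7.36% fell in that comparison, and 56.8% had a lower mean. Noninjured WT pools also differed among themselves, most in Dbp, Per1 and Bhlhe40, and the hour of day at which cells were taken is not given in the sources used here.

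The clock is a loop of transcription and repression that runs in most cells of the body, muscle included. CLOCK and BMAL1, the product of Arntl, pair up and activate genes that carry E-boxes, among them the Per and Cry genes, whose products return to the nucleus and repress that pair. A second loop acts on Arntl itself, which REV-ERB receptors (Nr1d1 and Nr1d2) repress and ROR receptors activate. DBP carries the rhythm on to other genes through D-boxes, and BHLHE40 represses the CLOCK-BMAL1 pair and is also induced by many stimuli, as Per1 is. In tissues that keep a rhythm, the transcripts of Arntl and of Dbp and the Per genes peak at different times of day.

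The cells were satellite cells, the stem cells of skeletal muscle, marked with YFP by a Pax7-CreER driver after tamoxifen and lysed for RNA without culture. Quiescent satellite cells (QSC) came from noninjured mice, and contralateral satellite cells (CSC) from the hindlimb opposite one injured with barium chloride. The series asks how an injury elsewhere changes resting stem cells, and whether the mTORC1 pathway and the receptor cMet take part. Expression was read on 21 Affymetrix arrays of 12 pools, each made from 3 to 4 mice.

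The WT mice were Pax7CreER/+;Rosa26REYFP/+ of strain mixed C57BL6. WT QSC had 3 pools, WT CSC at 2.5 days after injury had 3 pools, and WT CSC at 28 days had 1. The knockouts (KO) had 1 pool in each group and carried the same driver and reporter as the WT mice. TSC1 KO QSC were TSC1flox/flox, with mixed C57BL6 strain, and lack an inhibitor of mTORC1. Rptor KO QSC and Rptor KO CSC at 2.5 days were Rptrflox/flox, also mixed C57BL6, and lack raptor, a subunit of mTORC1. The cMet KO QSC and cMet KO CSC at 2.5 days were cMetflox/flox of strain C57BL6 mixed FVB, so that genotype and strain cannot be told apart in these pools. All mice were 3 to 5 months old and had received tamoxifen at least 2 weeks before. Recombination was limited to cells that expressed Pax7, and the floxed mice kept these genes elsewhere.

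Values are log2 probeset signals, and 1 unit is a doubling of signal. A gene is called changed where its adjusted p in limma, corrected over all 13956 genes, was under 0.05. A group of 1 pool has no spread of its own, so its tests borrow the spread of the WT pools, and what sets that pool apart cannot be told apart from its genotype or time.

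Across the 21 arrays the medians ran from 7.03 to 7.21, and arrays of the same pool correlated at 0.973 to 0.998. All 10 satellite cell markers were bright in every pool, from 9.60 to 12.98, each at or above the 90.9th percentile of genes by mean. At their single probesets, Tsc1 read 8.16 in the TSC1 KO pool against 8.34 to 8.69 in WT QSC. Rptor read 9.19 in Rptor KO QSC, within the 8.91 to 9.58 of WT QSC, and 8.85 in Rptor KO CSC, under the 9.43 to 9.84 of WT CSC at 2.5 days. Met read 10.25 in cMet KO QSC, above the 9.93 to 10.11 of WT QSC, and 10.13 in cMet KO CSC, under the 10.63 to 10.94 of WT CSC at 2.5 days. Whether these probes lie in the deleted exons is not given in the sources used here, so that these values do not check the labels. In bulk RNA, fewer cells of a type and less RNA per cell cannot be told apart.

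Promoters are shown for the genes below because these genes moved in a tested comparison and carry a clock motif. The sequences are RefSeq windows of 250 bases upstream of an annotated start (build GRCm38.p6), written 5′ to 3′ on the gene's strand. RefSeq windows were at hand for 8 of the 10 genes, 12 windows in all because some genes have several starts, and Per2 and Bhlhe40 were not matched. Capitals mark an exact match, on either strand, to 1 of 5 motifs: the E-box CACGTG, its variant CACGTT, the D-box TTATGTAA, the ROR element core TAGGTCA and the cAMP response element TGACGTCA. The upstream window of 1 Per1 start is chr11:69098699-69098948 on the plus strand, that of Per3 is chr4:151044666-151044915 on the minus strand, and that of Cry1 is chr10:85185055-85185304 on the minus strand. Ciart, a clock repressor outside the 10 genes, is added because it rose where they did not; its window is chr3:95882229-95882478 on the minus strand.
Per1: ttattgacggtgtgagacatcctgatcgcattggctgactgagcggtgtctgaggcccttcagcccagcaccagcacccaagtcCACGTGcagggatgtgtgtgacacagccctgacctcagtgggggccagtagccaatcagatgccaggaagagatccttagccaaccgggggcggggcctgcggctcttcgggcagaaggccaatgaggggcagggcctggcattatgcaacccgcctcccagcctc
Per3: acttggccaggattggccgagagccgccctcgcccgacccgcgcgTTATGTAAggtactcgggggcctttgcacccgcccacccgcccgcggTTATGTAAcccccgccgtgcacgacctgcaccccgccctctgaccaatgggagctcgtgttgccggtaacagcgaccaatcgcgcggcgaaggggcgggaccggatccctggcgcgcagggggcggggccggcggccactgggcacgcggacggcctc
Cry1: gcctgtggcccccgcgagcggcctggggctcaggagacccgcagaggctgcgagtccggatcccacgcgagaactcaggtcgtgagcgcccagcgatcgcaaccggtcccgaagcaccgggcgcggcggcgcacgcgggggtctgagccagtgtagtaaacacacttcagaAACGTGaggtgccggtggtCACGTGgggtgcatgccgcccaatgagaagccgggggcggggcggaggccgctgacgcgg
Ciart: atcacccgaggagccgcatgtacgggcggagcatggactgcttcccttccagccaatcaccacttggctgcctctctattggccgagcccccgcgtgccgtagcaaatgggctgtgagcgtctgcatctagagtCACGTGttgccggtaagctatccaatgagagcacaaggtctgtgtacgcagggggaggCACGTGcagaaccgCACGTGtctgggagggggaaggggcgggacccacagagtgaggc
The Per1 window holds an E-box that begins at -166 from the start, and a window at another Per1 start holds none of the motifs. Per3 holds 2 D-boxes, at -205 and -158. Cry1 holds an E-box at -60 and, at -79, the variant CACGTT read on the other strand, and Cry2 holds the variant at -166. Ciart holds 3 E-boxes, at -116, -58 and -44. Nfil3, also outside the 10 genes and called lower at 2.5 days, holds the ROR element core at -12 and is not shown. Bhlhe41, Hlf, Nr1d1, Rorb, Tef and Timeless, also outside the 10, hold a match too. The windows of Arntl, Clock, Nr1d2 and Dbp hold none of the 5 motifs. Of 32851 RefSeq windows of the same length, 6.02% hold CACGTG, 3.85% CACGTT, 0.819% TTATGTAA, 2.23% TAGGTCA and 1.55% TGACGTCA. These matches describe letters and not binding, and an absent match says only that the letters are not in the window.

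In WT cells 2.5 days after the contralateral injury, 3 of the 10 clock genes fell and none rose. In this comparison 18% of all tested genes were called, 7.36% as lower, and 56.8% had a lower mean in CSC, called or not. The mean of every clock gene was lower in CSC than in QSC, by -0.19 to -1.31, with a median of -0.45 against -0.05 over all tested genes. This held for all 10 genes under each alternative processing, rescaling of the arrays included. In Per1, Per2, Per3 and Bhlhe40 every CSC pool lay below every QSC pool, a pattern shown by 19.1% of all tested genes.

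**Figure D1:**
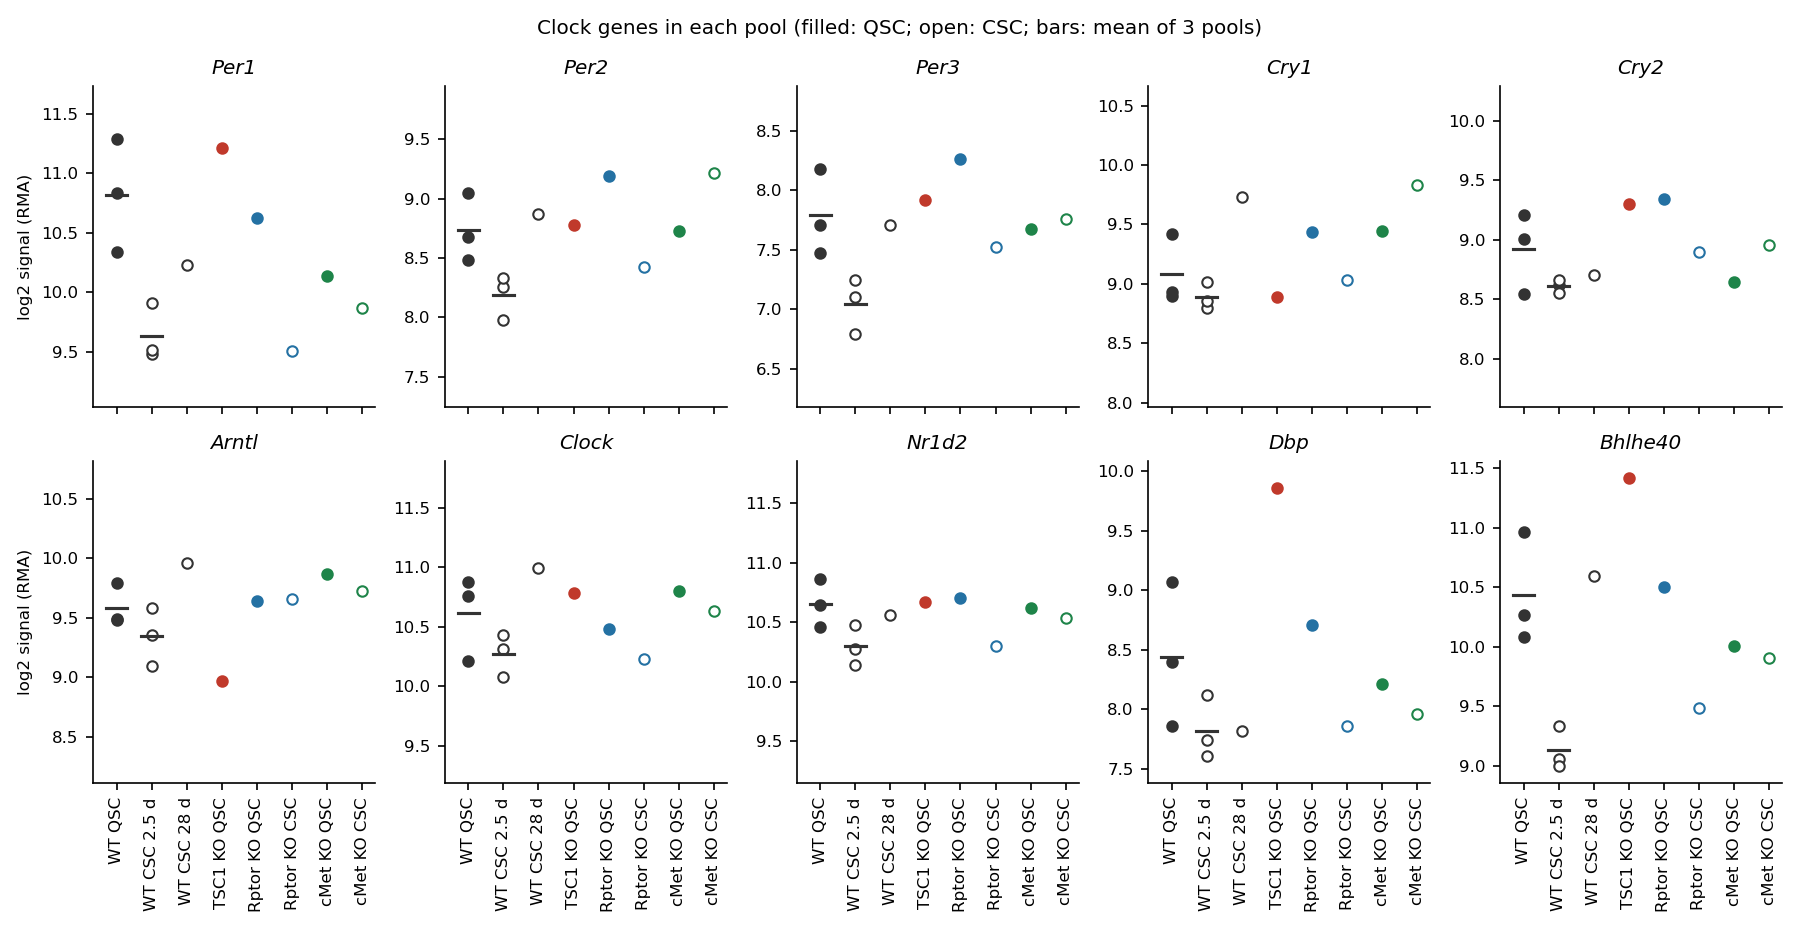
Log2 signal of each clock gene (vertical axes, each spanning the same number of units) in each of the 12 pools, by group. Points are pools, filled for QSC and open for CSC, and bars are the means of groups of 3 pools. Per1, Per2, Per3 and Bhlhe40 show WT CSC at 2.5 days wholly below WT QSC, and the TSC1 KO pool stands highest for Dbp and Bhlhe40 and lowest for Arntl.

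Among the repressors of the loop, Per1, which is also an acutely induced gene, read 11.29, 10.34 and 10.84 in WT QSC pools 1 to 3 and 9.48, 9.91 and 9.52 in WT CSC pools 1 to 3 at 2.5 days. Its groups did not overlap, and the highest CSC pool lay 0.42 under the lowest QSC pool. The mean fell from 10.82 ± 0.48 to 9.64 ± 0.24 (SD, n = 3 pools each), a difference of -1.18 ± 0.24 (SE) or 2.27-fold, with an adjusted p of 0.010 in limma.
Per2 read 9.05, 8.48 and 8.68 in QSC and 8.26, 8.33 and 7.98 in CSC. The groups did not overlap either, but the gap between them was 0.15. The difference of -0.55 ± 0.17 (SE) did not pass the threshold, with an adjusted p of 0.059, and it did pass without WT QSC pool 2 (adjusted p = 0.032), after a second quantile normalization (0.030), with single arrays per pool (0.042) and with all arrays under a random block (0.010).

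Per3, which the core loop does not require, read 8.18, 7.47 and 7.71 in QSC and 7.25, 7.10 and 6.79 in CSC. All CSC pools were below all QSC pools, by at least 0.22. The mean fell by 0.74 ± 0.20 (SE) on the log2 scale, or 1.67-fold, with an adjusted p of 0.035. This call is the least firm of the 3, being kept in 10 of 17 alternatives. It was lost without WT QSC pool 1 (difference -0.54, adjusted p = 0.071), without WT QSC pool 3 (0.053) and without CSC pools 1, 2 or 3 (0.058, 0.093 and 0.135), and also after median centring (0.060) and with no filter (0.052).
The Per1 call was kept in 17 of 17 alternatives, with adjusted p up to 0.047. In every count out of 17, the fit of WT pools alone repeats the main test. Averaging probesets leaves the values of the 10 clock genes as they are, since each has a single probeset.

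The cryptochromes, partners of PER in repression, did not pass the test. Cry1 read 8.93, 9.42 and 8.90 in QSC and 8.80, 9.01 and 8.86 in CSC. Its groups overlapped, with WT QSC pool 2 apart from the other two QSC pools, and the difference was -0.19 ± 0.17 (SE, adjusted p = 0.465). Cry2 read 9.21, 8.54 and 9.01 in QSC and 8.62, 8.66 and 8.55 in CSC. Its CSC pools lay within 0.11 of each other, although the arrays averaged in CSC pool 1 read 8.37 and 8.87. QSC pool 2 was below every CSC pool. The difference was -0.31 ± 0.18 (SE, adjusted p = 0.271), and without that pool it was -0.50 with an adjusted p of 0.037.

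The activators did not pass the test either. Arntl read 9.48, 9.79 and 9.49 in QSC and 9.09, 9.59 and 9.35 in CSC, with overlap and a difference of -0.24 ± 0.16 (SE, adjusted p = 0.351). Clock read 10.76, 10.88 and 10.21 in QSC and 10.08, 10.43 and 10.31 in CSC. QSC pool 3 lay among the CSC pools for Clock, the difference was -0.34 ± 0.19 (SE, adjusted p = 0.259), and without that pool it was -0.54 with an adjusted p of 0.047. In the 3 pools whose arrays differed alike, the second arrays of Clock read lower than the first, by 0.50 in WT CSC pool 1. Without those second arrays the Clock difference was -0.26. The 2 arrays of WT CSC pool 1 differed by over 0.2 in 7 of the 10 genes, as did those of Rptor KO CSC. In WT CSC pool 1, second minus first was -0.43 for Nr1d2, 0.35 for Per3 and -0.255 for Bhlhe40. Without the 3 second arrays Per1, Per3 and Bhlhe40 were still called.

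Nr1d2, the REV-ERB beta receptor that represses Arntl, read 10.65, 10.46 and 10.86 in QSC and 10.28, 10.48 and 10.14 in CSC. The groups met only at QSC pool 2 and CSC pool 2, and the difference was -0.36 ± 0.15 (SE, adjusted p = 0.145). Dbp, the D-box activator, read 9.07, 7.86 and 8.40 in QSC and 8.12, 7.74 and 7.60 in CSC. QSC pool 2 lay within the range of the CSC pools, and the difference of -0.62 ± 0.28 (SE) had an adjusted p of 0.163. Without QSC pool 2 the Dbp difference was -0.91 with an adjusted p of 0.034, and with all arrays under a random block it was -0.60 with an adjusted p of 0.045.

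Bhlhe40 had the largest difference of the 10 genes. It read 10.96, 10.08 and 10.26 in QSC and 9.06, 9.33 and 8.998 in CSC. The groups were 0.75 apart at their nearest pools, more than for any of the other 9 genes. The mean fell from 10.44 ± 0.46 to 9.13 ± 0.18 (SD, n = 3 pools each), a difference of -1.31 ± 0.22 (SE) or 2.47-fold, with an adjusted p of 0.0052 in limma. The call was kept in 17 of 17 alternatives, with adjusted p up to 0.029.

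**Figure D2:**
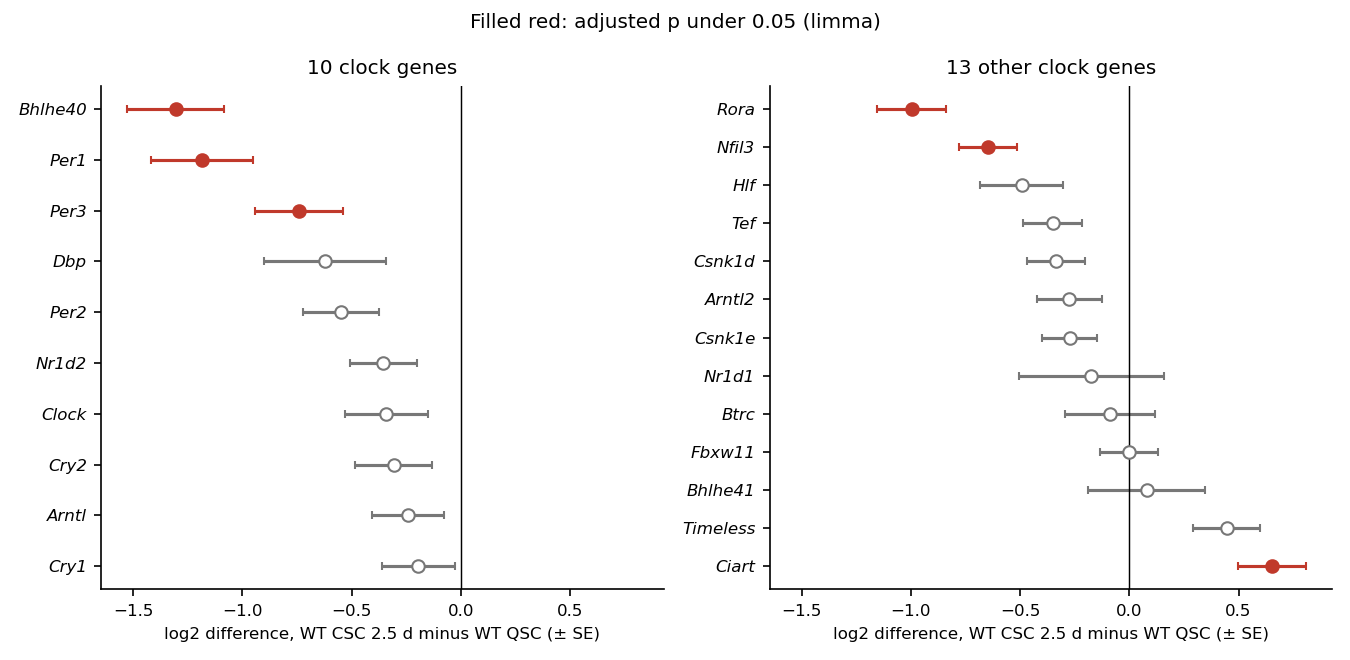
Log2 difference of WT CSC at 2.5 days from WT QSC (horizontal axis, with bars of 1 SE) for the 10 clock genes (left) and the 13 tested genes of a list of other clock genes (right). Filled red points passed an adjusted p of 0.05 in limma. All 10 points on the left lie below 0, from -0.19 for Cry1 to -1.31 for Bhlhe40, while on the right Rora and Nfil3 fell and Ciart rose.

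Of 18 other clock genes listed, 15 had a single-symbol probeset and 13 were tested, and 2 of them fell and 1 rose (median -0.27). Rora, a receptor that activates Arntl, fell from 11.26 ± 0.28 to 10.26 ± 0.03 (SD, n = 3 pools each), a difference of -0.996 ± 0.16 (SE) with an adjusted p of 0.0038. Nfil3, a repressor at D-boxes, fell from 10.99 ± 0.13 to 10.34 ± 0.13 (adjusted p = 0.012), and the call was lost without CSC pool 1 (0.051) or CSC pool 3 (0.057). Ciart, a repressor of CLOCK-BMAL1 whose window holds the 3 E-boxes shown above, rose from 6.99 ± 0.17 to 7.64 ± 0.22 (adjusted p = 0.022), and that call was lost without CSC pool 2 (0.094) or CSC pool 3 (0.059). Nr1d1, the REV-ERB alpha receptor, read 12.30, 10.86 and 12.21 in QSC and 11.59, 11.72 and 11.54 in CSC, with a difference of -0.17 ± 0.33 (SE, adjusted p = 0.762).

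Of 9 tested clock output genes 2 fell and none rose, with a median of -0.22. Usp2, a ubiquitin protease with rhythmic transcripts in many tissues, fell from 10.77 ± 0.42 to 9.39 ± 0.08 (SD, n = 3 pools each), a difference of -1.38 ± 0.20 (SE) with an adjusted p of 0.0025. Tsc22d3, which encodes the glucocorticoid-induced leucine zipper protein, fell from 9.23 ± 0.34 to 8.60 ± 0.09 (adjusted p = 0.038). The Tsc22d3 call was lost without QSC pool 1 or 2 (0.072 and 0.060), without CSC pool 1, 2 or 3 (0.083, 0.115 and 0.133), after median centring (0.067) and with no filter (0.054).

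Per1, Bhlhe40 and several output genes also answer to other signals, and lists of such genes moved in the same comparison. Of 14 immediate early genes, 13 fell and none rose, with a median of -1.09 and list means of 11.8 to 12.4 in QSC and 10.9 to 11.0 in CSC. The 3 with the smallest p were Btg2 (-1.42 ± 0.16, SE), Nr4a3 (-1.40 ± 0.20) and Junb (-1.02 ± 0.15). Of 12 glucocorticoid targets, 6 fell and none rose (median -0.54; list means 11.1 to 11.5 in QSC and 10.7 to 10.8 in CSC), led by Cebpd (-1.10 ± 0.14, SE), Zbtb16 (-1.82 ± 0.29) and Dusp1 (-0.80 ± 0.17). Tsc22d3 and Klf9 are in both this list and that of output genes. The 6 genes named from the immediate early and glucocorticoid lists passed the threshold in 17 of 17 alternatives. The part of either list in the clock gene differences was not tested.

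Markers of cell state and of other cell types also moved here. Of 9 tested cell cycle genes 8 rose (median 2.05), and 4 of 10 satellite cell markers fell (list means 11.3 to 11.7 in QSC and 10.8 to 10.9 in CSC). Of 10 endothelial markers 8 fell, with list means of 8.92 to 9.59 in QSC and 7.73 to 8.24 in CSC. Of 7 tested fibro-adipogenic markers 4 fell (8.99 to 9.37 against 8.27 to 8.73), and of 8 pericyte and smooth muscle markers 4 fell (8.98 to 9.65 against 8.54 to 8.69). Of 6 tested mature fibre markers 3 rose (8.14 to 9.05 against 9.58 to 9.85), and none of 7 tested macrophage markers passed (7.19 to 7.82 against 7.52 to 7.66). The part of these lists in the clock gene differences was not tested.

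Within WT QSC, 8 of the 10 clock genes varied more than the median gene, and Arntl and Nr1d2 did not. The SD over the 3 pools was 0.61 for Dbp, at the 98.0th percentile of tested genes, 0.48 for Per1 (93.5th) and 0.46 for Bhlhe40 (92.8th), against a median of 0.21 over all tested genes. Pool 1 was the highest and pool 2 the lowest in Per1, Per2, Per3, Cry2, Dbp and Bhlhe40, an order that 31.2% of tested genes had. Cry1, Arntl and Clock were highest in pool 2, as were 21.9% of tested genes. Nr1d1, outside the 10 genes and chosen after its values were seen, had the widest spread of the 13 other clock genes tested, at 0.51, -0.93 and 0.42 from its mean in pools 1, 2 and 3. In the CSC pools the 10 genes had SDs of 0.06 to 0.27, against a median of 0.13. Pool 2 also had the lowest list mean of the 3 QSC pools for endothelial (8.92), fibro-adipogenic (8.99), pericyte and smooth muscle (8.98), macrophage (7.19) and mature fibre markers (8.14). It was lowest too for other clock genes (9.26), clock output genes (10.04), glucocorticoid targets (11.10) and cell cycle genes (8.41). Pool 3 was the lowest for immediate early genes (11.8) and satellite cell markers (11.30). The part of these lists in the clock gene spread was not tested. Hour of collection and pool cannot be told apart.

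**Figure D3:**
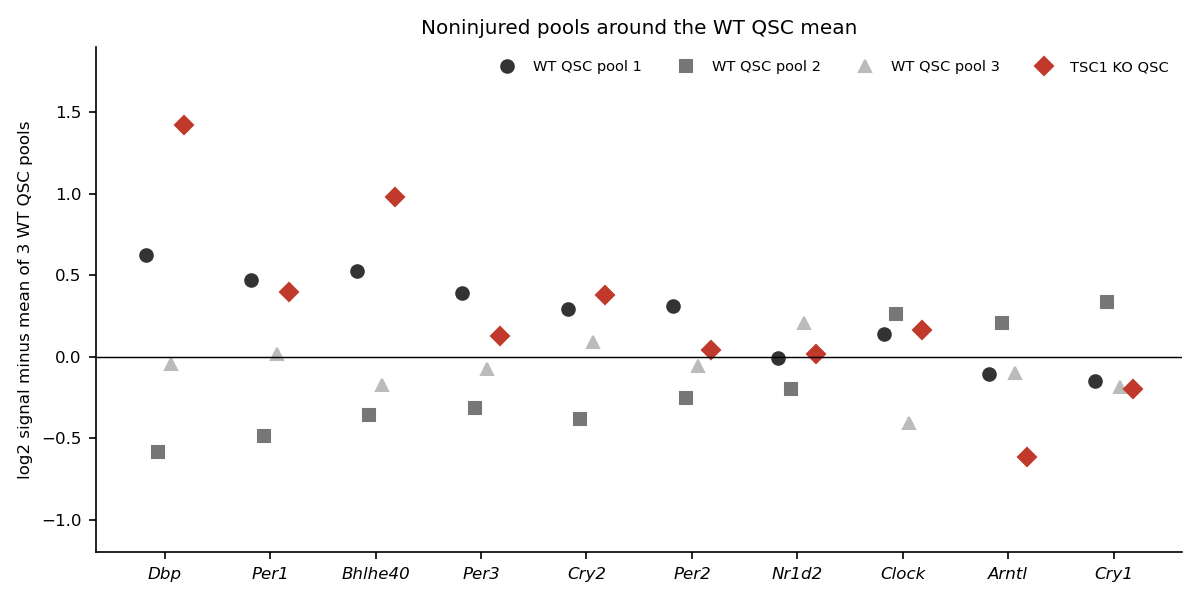
Log2 signal minus the mean of the 3 WT QSC pools (vertical axis) for each clock gene in the 3 WT QSC pools and the TSC1 KO QSC pool. WT pool 1 lies above and pool 2 below the mean from Dbp to Per2, Cry1, Arntl and Clock have pool 2 on top, and the TSC1 KO pool lies 1.42 above the mean for Dbp and -0.62 from it for Arntl.

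At 28 days after the injury the single WT CSC pool was compared with both WT groups, so that these comparisons share pools with the first. Bhlhe40 read 10.60 there, within the range of WT QSC and above every 2.5-day pool. It was higher than at 2.5 days by 1.47 ± 0.32 (SE), or 2.77-fold, with an adjusted p of 0.024, and was the 1 clock gene of 10 called, where 8.38% of all tested genes were. The call was lost without CSC pool 1 (0.069) or CSC pool 3 (0.076).

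The other 9 genes did not pass against 2.5 days. Per1 read 10.23, Per2 8.87 and Per3 7.71 at 28 days, all above the 2.5-day pools, and of these only Per1 was also under every QSC pool. Cry1 (9.73), Arntl (9.96) and Clock (11.00) were higher at 28 days than in any other WT pool. How many of all tested genes had such places in this single pool was not counted, so these places are not read as particular to clock genes. Their differences from 2.5 days were 0.84 ± 0.23 (SE, adjusted p = 0.060), 0.61 ± 0.23 (0.142) and 0.72 ± 0.27 (0.139). The Cry1 difference passed without WT QSC pool 2 (0.016). With all arrays under a random block Per2, Cry1 and Arntl passed as well as Bhlhe40. Dbp read 7.82, inside the range of the 2.5-day pools and under every QSC pool. Nr1d2 read 10.56 and Cry2 8.71.

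Against WT QSC, none of the 10 genes passed at 28 days, where limma called 0% of all tested genes and 637 had an unadjusted p under 0.05. Differences ran from -0.62 for Dbp to 0.65 for Cry1, and only Cry1 had an unadjusted p under 0.05 (adjusted p = 0.994). Of the other clock genes, Rora and Nfil3 were higher at 28 than at 2.5 days, by 1.06 ± 0.22 and 1.00 ± 0.19 (SE, adjusted p = 0.023 and 0.016), and Ciart was lower, at -0.86 ± 0.22 (0.046). Usp2 was higher by 1.10 ± 0.28 (0.047). The Rora and Usp2 calls were lost without any one of the 3 CSC pools (adjusted p up to 0.071 and 0.119), that of Nfil3 without CSC pool 3 (0.060), and that of Ciart without QSC pool 3 (0.053) or any CSC pool (up to 0.118). With no filter the Ciart and Usp2 calls were lost too (0.064 and 0.071), as was that of Usp2 after median centring (0.084). Immediate early genes had a median of 1.37 in this comparison, with 9 of 14 higher, and the list mean was 12.1 in the 28-day pool. Of 9 cell cycle genes 8 were lower at 28 than at 2.5 days (median -2.27), as were 3 of 6 tested mature fibre markers (median -1.37). Against WT QSC all 10 endothelial (median -1.27), 7 fibro-adipogenic (-0.63) and 8 pericyte and smooth muscle markers (-0.53) had lower values at 28 days, with none called. The part of these lists in the 28-day values was not tested.

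In the noninjured TSC1 KO pool none of the 10 clock genes was called, in a comparison with WT QSC in which 0.0143% of tested genes (2 genes) were called and 1231 had an unadjusted p under 0.05. Dbp read 9.86 there, the highest of all 12 pools, against 7.86 to 9.07 in WT QSC. The difference was 1.42 ± 0.40 (SE), with an unadjusted p of 0.0058 and an adjusted p of 0.394. Bhlhe40 read 11.42, also the highest of all 12 pools, with a difference of 0.98 ± 0.32 (adjusted p = 0.464). Arntl read 8.97, the lowest of all 12 pools, with a difference of -0.62 ± 0.23 (adjusted p = 0.524).

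Dbp and Bhlhe40 were both called when WT QSC pool 1, the WT pool nearest to the TSC1 KO pool in both genes, was left out. Without it the Dbp difference was 1.73 with an adjusted p of 0.037 and that of Bhlhe40 was 1.25 with an adjusted p of 0.037, and 231 genes were called in place of 2. With all arrays under a random block Dbp had an adjusted p of 0.016 and 174 genes were called. Per1 (11.22) and Per2 (8.78), Per3 (7.92), Cry1 (8.89), Clock (10.78) and Nr1d2 (10.67) differed by under 0.40 from the WT QSC mean, and Cry2 read 9.30. Of those, Cry1 and Cry2 lay just outside the WT QSC range and the rest within it. The share of all tested genes outside that range in the TSC1 KO pool was not counted. Among the other clock genes, and chosen after their values were seen, Bhlhe41 read 8.52 (difference 1.24 ± 0.38, SE, adjusted p = 0.438) and Nr1d1 12.82 (1.03 ± 0.47, adjusted p = 0.572). The list mean of immediate early genes was 12.4 in this pool, at the upper end of WT QSC, with 0 of 14 called in limma, and that of endothelial markers was 8.84, under the 8.92 to 9.59 of WT QSC, as was that of fibro-adipogenic markers (8.97 against 8.99 to 9.37). List means of pericyte and smooth muscle markers (9.88 against 8.98 to 9.65) and of mature fibre markers (9.44 against 8.14 to 9.05) lay above WT QSC, with none of the 8 and 6 tested called in limma. The part of these lists in the TSC1 KO values was not tested.

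In the Rptor KO mice the clock genes were compared between 1 CSC pool and 1 QSC pool. In QSC, Per1 read 10.63, Per2 9.19, Per3 8.26, Cry1 9.44, Cry2 9.34, Arntl 9.64, Clock 10.49, Nr1d2 10.70, Dbp 8.71 and Bhlhe40 10.50. In CSC the same genes read 9.51, 8.42, 7.52, 9.03, 8.90, 9.66, 10.23, 10.30, 7.86 and 9.49. Thus 9 of 10 were lower in CSC, Arntl being 0.02 higher, where 56.5% of all tested genes were lower. The median difference was -0.59 against -0.04 over all tested genes.

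None of these differences passed. They were -1.12 ± 0.41 for Per1, -1.01 ± 0.39 for Bhlhe40 and -0.77 ± 0.30 for Per2 (SE), with adjusted p of 0.832, 0.863 and 0.900, and limma called 0.258% of all tested genes. The same 9 genes were lower under each alternative. Most alternatives, such as leaving out a WT pool, do not alter the values of these 2 pools and cannot turn a sign. Without the second arrays of the 2 pools, which differ from their first alike, the 3 differences were -1.17, -0.97 and -0.79. Beside them, 4 of 9 cell cycle genes were called higher in CSC (median 1.39; list means 7.56 in QSC and 9.14 in CSC). Immediate early genes had a median of -0.77 with 0 of 14 called, endothelial list means were 9.09 in QSC and 8.54 in CSC, and macrophage list means were 7.66 in QSC and 9.31 in CSC, the highest of all pools. The part of these lists in the differences was not tested.

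Against the WT group of the same kind, Rptor KO pools had no called clock gene. In QSC 0.122% of tested genes were called (17 genes), and the clock gene differences ran from -0.19 to 0.47. In CSC 3.9% were called (544 genes), and the clock gene differences ran from -0.13 to 0.48. The response of Rptor KO minus that of WT was called for 0% of tested genes in limma, with 620 at an unadjusted p under 0.05, and up to 19 genes were called with a WT pool left out and 49 with all arrays under a random block. For the 10 clock genes that difference of responses ran from -0.23 to 0.29, each smaller than its SE of 0.31 to 0.56.

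**Figure D4:**
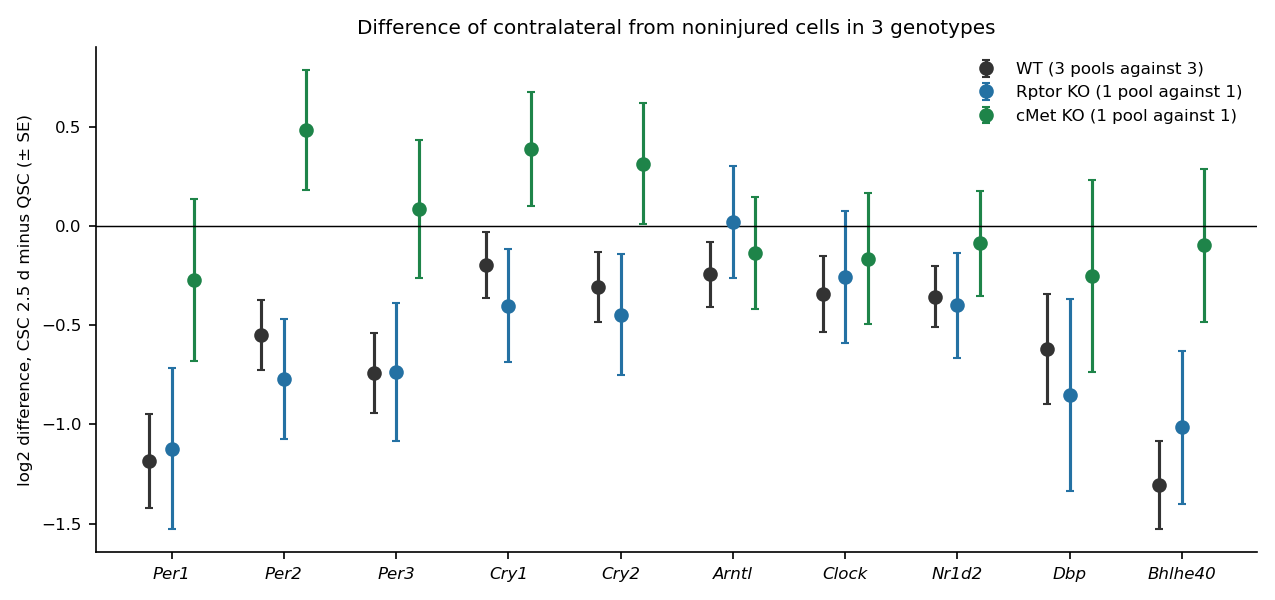
Log2 difference of CSC at 2.5 days from QSC (vertical axis, with bars of 1 SE) for each clock gene in WT, Rptor KO and cMet KO. The WT and Rptor KO points differ by less than the SE of their difference, for example -1.18 and -1.12 for Per1, while cMet KO points lie at -0.27 for Per1 and 0.49 for Per2, with wide errors from single pools.

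In the cMet KO mice, QSC read 10.14 for Per1, 8.73 for Per2, 7.67 for Per3, 9.44 for Cry1, 8.64 for Cry2, 9.87 for Arntl, 10.80 for Clock, 10.62 for Nr1d2, 8.21 for Dbp and 10.01 for Bhlhe40. In CSC the same genes read 9.87, 9.22, 7.76, 9.83, 8.96, 9.73, 10.64, 10.54, 7.96 and 9.91. The CSC pool was lower in 6 genes and higher in 4, by -0.27 to 0.49, and the median difference was -0.09. None passed, where limma called 0% of all tested genes and 75 had an unadjusted p under 0.05. In QSC alone, cMet KO against WT gave no called clock gene, with limma calling 0% of all tested genes and 185 at an unadjusted p under 0.05. Per1, at 10.14, and Bhlhe40, at 10.01, were under all 3 WT QSC pools in cMet KO QSC. Arntl, at 9.87, was above all 3, as was Cry1, at 9.44 against 9.42 in WT QSC pool 2. How many of all tested genes lay outside the WT QSC range in this pool was not counted, so these places are not particular to clock genes on these values.

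Against WT CSC at 2.5 days, Per2 and Cry1 were higher in the cMet KO CSC pool, and 6.74% of all tested genes were called. Per2, at 9.22 the highest of all 12 pools, exceeded the WT CSC mean of 8.19 ± 0.19 (SD, n = 3 pools) by 1.03 ± 0.25 (SE), or 2.04-fold, with an adjusted p of 0.042. Cry1, at 9.83 also the highest of all 12 pools, exceeded 8.89 ± 0.11 by 0.94 ± 0.23 (SE), or 1.92-fold, with an adjusted p of 0.047. All 10 genes had a higher value than the WT CSC mean (median 0.37), and this held under each alternative. Of all tested genes 49.9% had a lower value.

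Both calls lie near the threshold, and each was lost without any one of the 3 WT CSC pools. The adjusted p was then 0.086, 0.084 and 0.120 for Per2 and 0.110, 0.096 and 0.127 for Cry1. Both were also lost after median centring (0.072 and 0.059) and with no filter (0.057 and 0.062), and that of Cry1 with trend and robust options (0.058) and with first arrays alone (0.060). Beside them, 8 of 10 endothelial markers were higher, with a list mean of 9.98 in this pool, the highest of all 12, against 7.73 to 8.24 in WT CSC. Also higher were 4 of 7 fibro-adipogenic markers (list mean 9.67 against 8.27 to 8.73), 2 of 8 pericyte and smooth muscle markers (9.62 against 8.54 to 8.69), 2 of 7 macrophage markers (8.29 against 7.52 to 7.66) and 2 of 14 immediate early genes (11.7 against 10.9 to 11.0). Lower were 8 of 9 cell cycle genes and 1 of 6 mature fibre markers. The part of these lists in the Per2 and Cry1 differences was not tested.

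The response of cMet KO minus that of WT was positive for all 10 clock genes, with a median of 0.60, although that of Arntl turned to -0.02 in 1 alternative. None passed, and 0.158% of tested genes did (22 genes), while 50.7% of tested genes had a negative difference of responses. The largest were 1.21 ± 0.45 for Bhlhe40 (SE, adjusted p = 0.403) and 1.03 ± 0.35 for Per2 (adjusted p = 0.356). The WT pools enter every one of these comparisons, so that the 3 genotypes are set side by side and not counted as separate evidence.

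The 8 group levels of a gene differed by 0.40 for Nr1d2, the steadiest of the 10, and by 2.29 for Bhlhe40, the widest. Ordered from high to low, Bhlhe40 ran from TSC1 KO QSC through WT CSC at 28 days, Rptor KO QSC, WT QSC, cMet KO QSC, cMet KO CSC and Rptor KO CSC to WT CSC at 2.5 days. Of its 7 steps between neighbours 4 were larger than the moderated SD of 0.27, and the widest was 0.82, under TSC1 KO QSC. That SD is for a single pool, and the SE of these Bhlhe40 steps was larger, at 0.32 to 0.39. Counts of steps above the SD thus describe the order and do not test it. Dbp spanned 2.04, with 1 step above its SD of 0.34, also under TSC1 KO QSC. Per1 spanned 1.71, from TSC1 KO QSC to Rptor KO CSC, with 2 steps above its SD of 0.29.
For Clock no step between neighbours was larger than its SD of 0.23, and the highest group was WT CSC at 28 days, as it was for Arntl. Cry1 and Per2 were highest in cMet KO CSC, with 2 and 3 of 7 steps above their SD, and Per3, Cry2 and Nr1d2 were highest in Rptor KO QSC, with 2, 1 and 1.

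For each clock gene the genes with the most similar values over the 12 pools were found by Pearson's r, as a description across pools that share groups and, for WT and each knockout, a genotype. Bhlhe40 was most like Fos (r = 0.978) and Nr4a1 (0.973), both immediate early genes, and Per1 was most like Sik1 (0.958), a kinase gene of the same list, and Pink1 (0.955). Dbp was most like Tst (0.974) and Cdip1 (0.969), and Per3 was most like Tmem8b (0.966) and Vmac (0.966). The closest genes to Per2 were Ncoa3 (0.948) and Klhl29 (0.935), those to Cry1 were Zcchc7 (0.946) and Pibf1 (0.941), and those to Cry2 were Cx3cl1 (0.938) and Acsf2 (0.937). Uggt2 (0.951) and Mbtd1 (0.934) were closest to Arntl, Pof1b (0.955) and Spin4 (0.950) to Clock, and Nat14 (0.950) and Fbxo7 (0.930) to Nr1d2. No clock gene had another of the 10 among its 2 closest genes.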

How the data were processed

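Gene expression was measured in 12 pools of YFP-sorted muscle stem cells on 21 arrays (Affymetrix Mouse Gene 1.0 ST, 100 ng of RNA). The authors deposited log2 probeset values from Affymetrix Expression Console with RMA, per the submitters' processing notes. Program versions, genome build and the set of arrays normalized jointly are not stated in the sources read. Scanner files were not used here.

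Of 35556 probesets, 21789 had 1 gene symbol in the platform table and were used, the brightest where a gene had several. Technical arrays were averaged per pool. Genes under the 30th percentile of the mean (log2 6.45) were dropped, leaving 13956. limma 3.58.1 in R 4.3.3 (lmFit, eBayes) gave a mean per group over all 12 pools, 12 contrasts and Benjamini-Hochberg adjusted p over those genes. Residual degrees of freedom were 4, all within the 2 WT groups of 3 pools (prior 5.01). Same-numbered WT pools correlated at 0.32, -0.03 and -0.03 in their deviations. For QSC pool 1 other numbers gave -0.31 to -0.16, and for pools 2 and 3 the values lay between those of other numbers. These values do not settle whether pool numbers pair the pools, and the main test did not pair them. In 10 simulations of 13956 genes with 200 changed, a log2 change of 1 was recovered in 94.1% of cases for 3 pools against 3 (WT CSC, WT QSC) and 57.0% for TSC1 KO QSC. The 200 genes moved by 1, 2 or 3 units. These rates are averages over genes, and are not those of a given clock gene or of comparisons with other numbers of changed genes.

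The clock genes and all lists were chosen with earlier results of these data known. Named genes are the 10, the genes of the other clock and output lists past the threshold in WT CSC at 2.5 days, and the 3 with the smallest p there in the immediate early and glucocorticoid lists. Alternatives were a second quantile normalization, median centring, no filter or the 50th percentile, all probesets averaged, trend and robust eBayes, all arrays under a random block, first arrays alone, each WT pool left out, WT pools alone or with a replicate block and, chosen after seeing the data, omission of 3 second arrays whose differences from the first correlate (r 0.62 to 0.69). Promoters are RefSeq windows (GRCm38.p6). Figures used matplotlib 3.10.9.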

Additional observations from a re-analysis of the deposited data

How the results depend on the processing

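The number of the 10 clock genes called was within 1.5 times its main value in each setting tried except these. With all arrays under a random block it was 5 and not 3 for WT CSC at 2.5 days against WT QSC, 4 and not 1 for WT CSC at 28 against 2.5 days, and 1 and not 0 for TSC1 KO QSC. For cMet KO CSC against WT CSC it was 0 and not 2 after median centring and with no filter, and 1 with trend and robust options and with first arrays alone. Leaving out 1 WT pool gave 2 to 6 genes for WT CSC at 2.5 days, 0 to 2 at 28 against 2.5 days, 0 to 2 for TSC1 KO QSC and 0 to 3 for cMet KO CSC against WT CSC, where fewer pools also leave 3 residual degrees of freedom. The cause of the other changes was not tested. With the replicate number as a block among the WT pools, 4 clock genes were called, Dbp being added with an adjusted p of 0.050. In all 2796 genes were called against 2510, and whether the numbers pair the pools is not settled.

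Counts over all genes moved more. Leaving out 1 WT pool gave 1194 to 2620 genes (main 2510) for WT CSC at 2.5 days, 453 to 1776 (1169) at 28 against 2.5 days, 1 to 231 (2) for TSC1 KO QSC, 2 to 46 (17) for Rptor KO QSC, 15 to 55 (36) for Rptor KO CSC against QSC, 25 to 994 (544) and 314 to 1578 (941) for Rptor KO and cMet KO CSC against WT CSC, 0 to 43 (22) for the cMet KO minus the WT response and 0 to 19 (0) for that of Rptor KO. The random block gave 3606, 2354, 174, 235, 112, 1378, 2173, 357 and 49 in these comparisons, and 52, 2 and 2 in place of 0 for WT CSC at 28 days and cMet KO QSC against WT QSC and for cMet KO CSC against QSC. Of the genes called at 2.5 days 59.1% were higher, against 70.0% without WT QSC pool 1 and 51.2% to 70.9% over the left-out pools. Signs of several differences that did not pass turned in some settings, in the knockout comparisons and at 28 days. The number of pools limits all single-pool comparisons.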
